A study of Mus musculus with 24 samples.

Results

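Potassium channel genes carry the gene symbol prefix Kcn and were followed here in the left ventricles of control and GLUT4-transgenic mice with and without streptozotocin diabetes. All gene names on the array that begin with Kcn were taken, 95 names with 137 probes, and the choice was by name alone. A probe was used where the scanner software marked it well above background on at least 6 of the 24 arrays, which 72 of the 95 names reached with 91 probes, out of 28237 genes kept in all. The brightest kept probe stood for its gene, and the other probes of a gene served as a check. Of the 72 genes, 47 were above background on all 24 arrays and 25 on fewer, 9 of these on 6 to 11 arrays. The 23 names left out, 14 of which were above background on no array, include Kcne1 and Kcne2, which encode accessory subunits, and they have no value here. Among the 72 names, Kcnq1ot1 is an antisense transcript and Kcnrg is a regulator, so neither is a channel subunit.

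Each of 24 male mice gave 1 left ventricle, its right ventricle having been dissected away, and 1 single-colour array, with 6 mice in each of 4 groups. CON VEH were mice labelled CON that received citrate buffer, and CON STZ were mice labelled CON that received streptozotocin (STZ), which destroys insulin-producing pancreatic cells, as 5 daily injections of 55 mg per kg. mG4H VEH and mG4H STZ were the same treatments in mice with an inducible transgene for GLUT4, the insulin-regulated glucose transporter, restricted to cardiomyocytes. STZ preceded transgene induction by 2 weeks, and a further 2 weeks of induction preceded harvest. The labels state neither the promoter that drives the transgene nor which alleles the CON mice carry. Each group had siblings in another group, without a record of which mice these were. Blood glucose at 4 weeks was 117 to 164 in CON VEH, 600 to 601 in CON STZ, 131 to 152 in mG4H VEH and 500 to 601 in mG4H STZ, with no unit given in the labels. The mice of CON VEH weighed 30.85 ± 3.07 (SD, n = 6) at 4 weeks, those of CON STZ 25.6 ± 2.30, those of mG4H VEH 27.3 ± 2.25 and those of mG4H STZ 24.7 ± 2.35, also without a unit.

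Repolarisation is the return of the cardiomyocyte membrane to its resting potential after each beat, and it is carried by potassium leaving the cell through several families of channels. In the mouse ventricle the fast transient outward current (Kv4 channels with the subunit KChIP2) and slowly inactivating delayed rectifier currents such as that of Kv1.5 do most of this work. Inward rectifiers set the resting potential, and ERG and KCNQ channels, which are prominent in large mammals, contribute little in adult mice. A smaller transient outward current is a long-known feature of diabetic rodent hearts, and it prolongs the action potential.

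Levels are given as log2 signal relative to the 75th percentile of the same array, so that 0 is that percentile. They compare mice for a given probe and do not rank genes against each other. The 75th percentile lay between 369.8 and 583.2 intensity units per array, 58.5% to 76.3% of spots were above background and no spot was saturated. Mice of all 4 groups shared slides 1 to 3, and slide 4 carried CON VEH 3 and mG4H VEH 3 alone, so within-slide values come from slides 1 to 3. The Slc2a4 probe, for the gene of GLUT4, did not separate the genotypes: mG4H was -0.20 ± 0.16 (log2, SE) against CON under VEH and 0.20 ± 0.16 under STZ, both with a limma adjusted p = 1. The labels do not say which part of the transcript the transgene carries, so this probe does not check the genotype labels, and the genotypes are named as labelled. The 6 cardiomyocyte markers were above background on all arrays, and their summed signal spanned 1998 to 2736 times the 75th percentile in CON VEH and 1961 to 2731 in CON STZ. It spanned 2062 to 2547 in mG4H VEH and 2016 to 2669 in mG4H STZ. The atrial markers other than Nppa, namely Myl4, Myl7, Sln and Bmp10, summed to 53.2 in mG4H VEH 5, 73.3 in mG4H VEH 6 and 20.99 in mG4H STZ 4, against 3.13 to 9.12 on the other arrays. In such whole-ventricle RNA, fewer cells of a type and less RNA per cell cannot be told apart.

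After STZ, 5 potassium channel genes fell and 1 rose in CON hearts. These were Kcnd2, Kcna4, Kcna7, Kcnj5 and Kcnn2 on the one side and Kcnk6 on the other, 6 of 72 or 8.33% past an adjusted p of 0.05. The background over all 28237 genes was 3.96% called, 2.29% lower and 1.66% higher. At an unadjusted p under 0.05, 12 Kcn genes were lower and 6 higher, beside 7.75% and 6.51% of all genes, and together 18 of 72 beside 14.3%. The median log2 fold change of the 72 genes was -0.0064 beside 0.027 over all genes, with 37 below 0 and 35 above, so the family as a whole showed no common shift. In 7 Kcn genes every CON STZ mouse lay below every CON VEH mouse, namely Kcna7, Kcnd2, Kcnj12, Kcnj3, Kcnj5, Kcnk1 and Kcnn2, beside 2.67% of all genes. In Kcne4 and Kcnk6 every CON STZ mouse lay above, beside 1.91% of all genes. The count of 6 was 1 with body weight as a covariate (Kcna4) and 0 with arrays scaled on their median, where 75 genes were called over the whole array. Without CON STZ 3, mG4H STZ 3 and mG4H STZ 5, a choice made after seeing the data, it was 12, of which 10 were lower, and the count over all genes went from 1117 to 2366. It was 10 without mG4H STZ 5 alone, with 1456 over all genes.

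**Figure D1:**
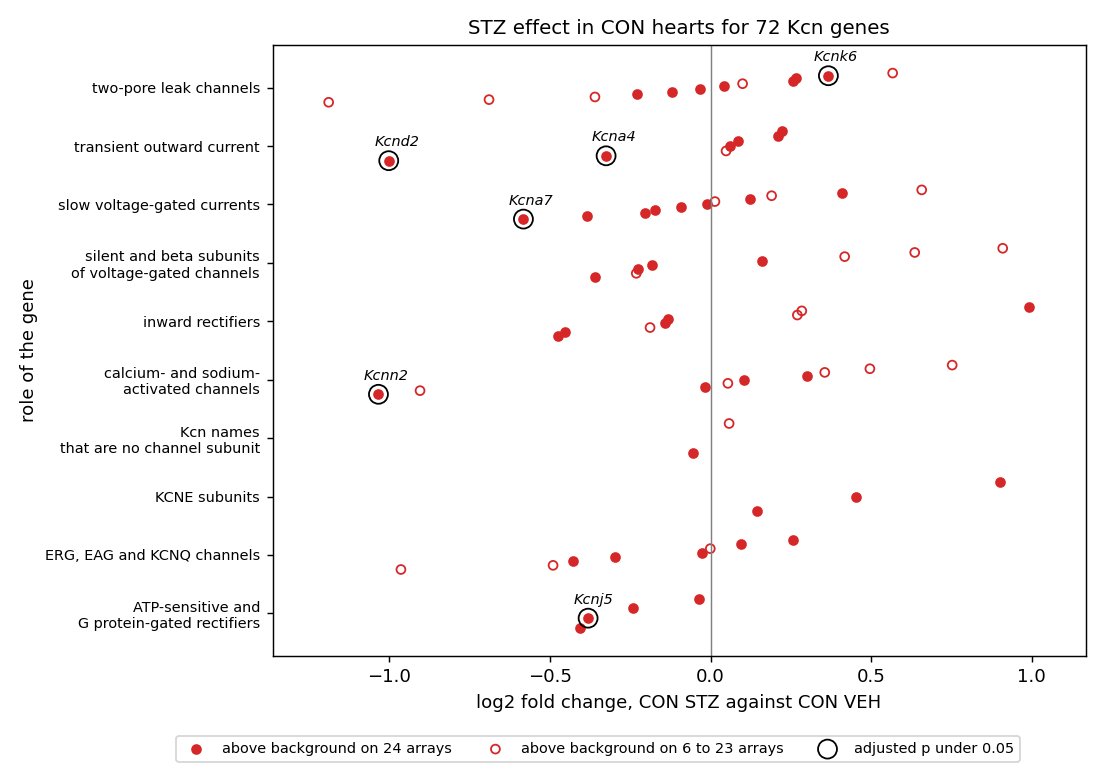
Each point is 1 of the 72 Kcn genes, placed by its log2 fold change between CON STZ and CON VEH (horizontal axis) and its role (rows, with a small vertical offset). Filled points were above background on all 24 arrays, open points on fewer, with Kcns3 among the open points although it was below background in every CON VEH mouse, and rings mark the 6 genes past the threshold, which are spread over 5 roles.

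The RefSeq promoter table (build GRCm38.p6) holds 68 promoters of 53 of the 72 genes. The 250 bases before the annotated start are printed for Kcnd2, Kcna4, Kcna7 and Kcnj5, 4 of the 5 genes that fell; none is printed for Kcnn2. They lie at chr6:21215096-21215345 (plus strand), chr2:107290339-107290588 (plus), chr7:45405710-45405959 (plus) and chr9:32344345-32344594 (minus). Capitals mark matches on either strand to the GC box GGGCGG, the TATA box TATAAA, the Iroquois site ACANNTGT or the forkhead site GTAAACA, with no overlaps between motifs.
Kcnd2: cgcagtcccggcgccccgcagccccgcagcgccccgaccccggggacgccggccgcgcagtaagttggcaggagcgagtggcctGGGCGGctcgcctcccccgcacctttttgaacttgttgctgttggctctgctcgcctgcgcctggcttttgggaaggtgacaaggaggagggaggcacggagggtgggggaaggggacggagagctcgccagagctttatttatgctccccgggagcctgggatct
Kcna4: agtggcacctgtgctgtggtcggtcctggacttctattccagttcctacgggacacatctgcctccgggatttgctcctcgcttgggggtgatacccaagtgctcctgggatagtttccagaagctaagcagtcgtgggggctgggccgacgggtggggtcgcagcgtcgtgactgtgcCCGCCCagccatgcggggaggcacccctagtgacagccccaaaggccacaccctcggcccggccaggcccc
Kcna7: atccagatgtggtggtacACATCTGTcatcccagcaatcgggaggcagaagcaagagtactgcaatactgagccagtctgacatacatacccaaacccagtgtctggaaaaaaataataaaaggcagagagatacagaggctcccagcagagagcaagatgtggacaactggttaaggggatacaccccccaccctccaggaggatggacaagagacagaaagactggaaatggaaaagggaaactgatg
Kcnj5: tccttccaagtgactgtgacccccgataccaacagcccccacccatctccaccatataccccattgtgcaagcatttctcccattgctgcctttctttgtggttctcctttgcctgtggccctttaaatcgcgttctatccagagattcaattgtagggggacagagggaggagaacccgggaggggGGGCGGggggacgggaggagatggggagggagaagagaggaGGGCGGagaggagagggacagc
The GC box was found at 1 place in Kcnd2, 1 in Kcna4 and 2 in Kcnj5, and the Iroquois motif at 1 in Kcna7. Over all 32851 promoters of that length, 32.7% hold the GC box, 12.4% the TATA box, 6.31% the Iroquois motif and 3.17% the forkhead motif. Among the 68 Kcn promoters these shares were 45.6%, 1.47%, 2.94% and 0.0%. G and C made up 68.8% of the Kcnd2 window, 65.2% of Kcna4, 58.0% of Kcnj5 and 48.4% of Kcna7, and none of these motifs was in all 4 windows. Matches are letters in these windows and not sites of a factor.

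Of the 7 measured genes of the transient outward current, Kcnd2 and Kcna4 fell in CON STZ hearts and the other 5 did not pass. Kcnd2 encodes Kv4.2, a pore subunit of the fast component, and its probe lies at chr6:21679569-21679628 on the plus strand of mm9. Its level ran from 2.63 through a median of 3.07 to 3.61 in CON VEH and from 1.76 through 1.98 to 2.59 in CON STZ. The groups did not overlap, and 4 of the 6 diabetic mice were at 2.03 or less. The fall was 1.002 ± 0.17 on the log2 scale (SE, n = 6 per group, 95% interval -1.36 to -0.64), or 2.00-fold, with a limma adjusted p = 0.00211. Within slides 1, 2 and 3 the difference was -0.62, -1.04 and -1.34.

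Kcna4 encodes Kv1.4, the pore of the slow transient outward current. Its level ran from 1.46 through 1.64 to 1.74 in CON VEH and from 1.17 through 1.28 to 1.46 in CON STZ, so the lowest control and the highest diabetic mouse met. The fall was 0.33 ± 0.070 (limma adjusted p = 0.0103). It had nearly the same size on each slide, -0.35, -0.38 and -0.26.

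The partners of Kv4.2 did not pass. Kcnd3, which encodes Kv4.3, ran from 2.13 through 2.35 to 2.47 in CON VEH and from 2.28 through 2.42 to 2.55 in CON STZ. Its log2 fold change was 0.09, with a 95% interval from -0.09 to 0.26, which excludes a fall of the size seen in Kcnd2. Kcnip2, which encodes KChIP2, the accessory subunit that brings Kv4 channels to the membrane, ran from -0.67 through -0.44 to -0.19 in CON VEH and from -0.92 through -0.36 to -0.07 in CON STZ. Its log2 fold change was 0.06 with a 95% interval from -0.37 to 0.49. Kcnip3, a related calcium sensor named after its values were seen, was at 2.05 in CON STZ 3 and at 0.42 to 0.68 in the other CON STZ mice, and its difference of 0.22 ± 0.33 did not pass.

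**Figure D2:**
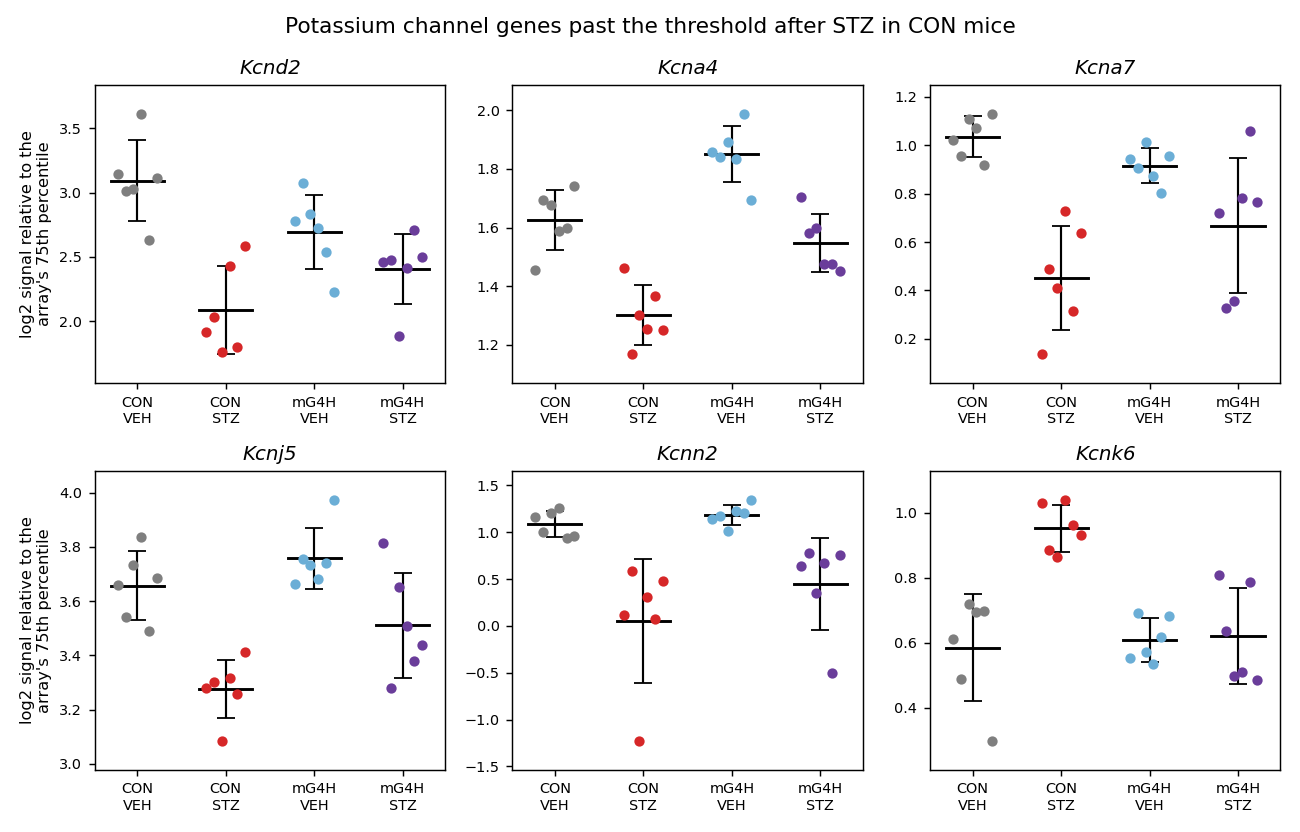
Log2 signal relative to the 75th percentile of each array (vertical axes) for the 6 genes past the threshold between CON STZ and CON VEH. Points are single mice in replicate order, the horizontal line is the group mean and the bar is 1 SD (n = 6). Kcnd2, Kcna7, Kcnj5 and Kcnn2 of CON STZ lie wholly below CON VEH, Kcna4 meets it at 1.46 and Kcnk6 lies wholly above.

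Of 11 measured genes listed under slow voltage-gated currents, a group that also holds Kcnc1 to Kcnc4, Kcna7 alone passed. Kcna7 encodes Kv1.7, which is expressed in heart and skeletal muscle. It ran from 0.92 through 1.05 to 1.13 in CON VEH and from 0.14 through 0.45 to 0.73 in CON STZ, with no overlap. The fall was 0.58 ± 0.11 (limma adjusted p = 0.00385), and -0.39, -0.64 and -0.63 on the 3 slides. The other kept Kcna7 probe did not show it: its log2 fold change was 0.15 ± 0.30, and the mean of both probes gave -0.22 ± 0.15 with an adjusted p = 0.639, so the fall belongs to the brighter probe at chr7:52666474-52666533 (mm9, plus strand). Kcna5, which encodes Kv1.5, was at 0.41 ± 0.26 with a 95% interval from -0.12 to 0.94, and CON STZ spread from 0.79 to 2.43 where CON VEH spread from 1.17 to 1.86.

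Among the 8 silent and beta subunits of voltage-gated channels none passed. Without Kcns3, the log2 fold changes of the other 7 in CON ran from -0.36 to 0.64 with a median of -0.18. Kcns3 was below background in all 12 VEH mice of both genotypes and above it in 4 of the 6 CON STZ mice. The CON STZ mean was at least 1.17-fold above the dimmest measurable signal, and its adjusted p was 0.464.

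No ERG, EAG or KCNQ gene passed out of 8, and no KCNE gene out of 3. Kcnh2, the ERG channel of the rapid delayed rectifier, ran from 0.49 through 0.69 to 0.94 in CON VEH and from -0.18 through 0.30 to 0.58 in CON STZ. Its difference was -0.43 ± 0.15 with a limma adjusted p = 0.142. Kcnq1, the pore of the slow delayed rectifier, was at -0.30 ± 0.14 (adjusted p = 0.348), and its usual partner Kcne1 was not measurable. Kcne4 encodes an accessory subunit that inhibits KCNQ1 and several Kv1 channels. It ran from -3.21 through -2.94 to -2.57 in CON VEH and from -2.50 through -2.01 to -1.75 in CON STZ. These groups did not overlap, and the difference was 0.90 ± 0.27 at a limma adjusted p = 0.0635, just outside the threshold. The other Kcne4 probe gave 0.99 ± 0.55. Kcne4 passed, like Kcnh2, Kcnj12, Kcnj3, Kcnk1 and Kcnk3, when the 3 arrays named above were left out. That choice was made after seeing the data, and the count over all genes went from 1117 to 2366.

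None of the 8 measured inward rectifier genes passed. The 2 classical ones of the ventricular resting potential, Kcnj2 and Kcnj12, differed in their values. Kcnj2, which encodes Kir2.1, ran from -2.96 through -2.78 to -2.19 in CON VEH and from -3.03 through -2.80 to -2.65 in CON STZ, a difference of -0.13 with a 95% interval from -0.49 to 0.22. Kcnj12, which encodes Kir2.2, ran from 2.24 through 2.46 to 2.60 and from 1.499 through 2.08 to 2.23. The latter groups did not overlap, but the lowest CON VEH mouse at 2.239 and the highest CON STZ mouse at 2.235 nearly met. The difference of -0.45 ± 0.13 had a limma adjusted p = 0.0575, with -0.33, -0.40 and -0.66 on the 3 slides. Kcnj4, which encodes Kir2.3 and was named after its values were seen, was at 0.99 ± 0.38 (adjusted p = 0.171). Within its control group CON VEH 3 was at -0.75 and the other 5 mice lay at 0.73 to 1.19.

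The G protein-gated channel that slows the heart under vagal tone is built from Kcnj3 (GIRK1) and Kcnj5 (GIRK4). Kcnj5 ran from 3.49 through 3.67 to 3.84 in CON VEH and from 3.08 through 3.29 to 3.41 in CON STZ. The groups did not overlap and the fall was 0.38 ± 0.088 (limma adjusted p = 0.0157), with -0.31, -0.25 and -0.49 on the 3 slides. Without slide 4 the value was -0.37 and the adjusted p was 0.0511. Kcnj3 ran from -1.99 through -1.83 to -1.76 in CON VEH and from -2.55 through -2.31 to -2.004 in CON STZ, also without overlap. Its difference of -0.41 ± 0.13 missed the threshold (adjusted p = 0.0799), its other probe gave -0.49 ± 0.14, and the mean of both probes passed. As both genes are known for the atrium, the atrial markers bear on this pair: without Nppa their sum was 4.19 to 6.33 in CON VEH and 3.13 to 9.12 in CON STZ, and the 2 highest, CON STZ 2 and 3, had the highest Kcnj3 of their group at -2.051 and -2.004. Kcnj5 did not follow: it was 3.30 in CON STZ 2, and the 3.08 of CON STZ 3 was the lowest of all arrays. These 2 sums were high mostly through Sln, at 2.31 and 1.72 beside -0.99 to 0.06 in the other CON STZ mice. Myl4 was at 1.99 and 2.03 there, beside 1.31 to 1.705. Myl7 was highest in CON STZ 6 at -3.25, and Bmp10 was at -3.41 in CON STZ 2 and -2.34 in CON STZ 3. The part of atrial tissue in the Kcnj3 and Kcnj5 values was not tested.

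The ATP-sensitive channel genes showed no call. Kcnj11, which encodes Kir6.2, the ventricular pore, was at -0.04 with a 95% interval from -0.25 to 0.18. Kcnj8, which encodes Kir6.1 and is known mainly from vascular smooth muscle and pericytes, was at -0.24 with an interval from -0.73 to 0.25. The summed pericyte and smooth muscle markers spanned 105.5 to 131.0 in CON VEH and 108.6 to 145.0 in CON STZ.

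Of the 12 tandem-pore leak channels, which carry background current, Kcnk6 alone passed and it rose. Kcnk6 encodes TWIK-2, and it ran from 0.30 through 0.65 to 0.72 in CON VEH and from 0.86 through 0.95 to 1.04 in CON STZ. Every diabetic mouse was above every control, by a mean of 0.37 ± 0.080 (limma adjusted p = 0.0105), and by 0.53, 0.47 and 0.22 on the 3 slides. TWIK-2 is known from vessels and macrophages as well as from heart. The 5 measured macrophage markers were all higher in CON STZ by a median of 0.35 with none past the threshold, and their sum spanned 21.9 to 24.3 in CON VEH and 16.3 to 33.2 in CON STZ. Their part in the Kcnk6 result was not tested. Kcnk1, which encodes TWIK-1 and was named after its values were seen, had the lowest log2 fold change of all 72 genes, -1.19 ± 0.34 (adjusted p = 0.0509), with 6 of 6 CON VEH but 3 of 6 CON STZ arrays above background. Kcnk3, which encodes the acid-sensitive TASK-1, was at -0.23 ± 0.076 (adjusted p = 0.109). Kcnk2, which encodes the stretch-sensitive TREK-1, was at -0.69 ± 0.47 with an interval from -1.67 to 0.29. Its level was -6.05 in CON STZ 3 and -4.48 to -3.47 in the other CON STZ mice. A level as low as -6.05 lies near background: Kcnip1, with a CON VEH mean of -5.62, was above background on 6 of 24 arrays.

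Of the 9 calcium- and sodium-activated channels Kcnn2 alone passed. Kcnn2 encodes SK2, a small-conductance channel opened by intracellular calcium. It ran from 0.94 through 1.08 to 1.26 in CON VEH and from -1.23 through 0.21 to 0.58 in CON STZ, without overlap. CON STZ 3 at -1.23 stood apart from the other 5 mice, which lay at 0.07 to 0.58. The fall was 1.03 ± 0.24 (limma adjusted p = 0.014), with -0.67, -0.66 and -1.68 on the 3 slides. Without the 3 arrays named above, CON STZ 3 among them, it was 0.78 ± 0.093.

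**Figure D3:**
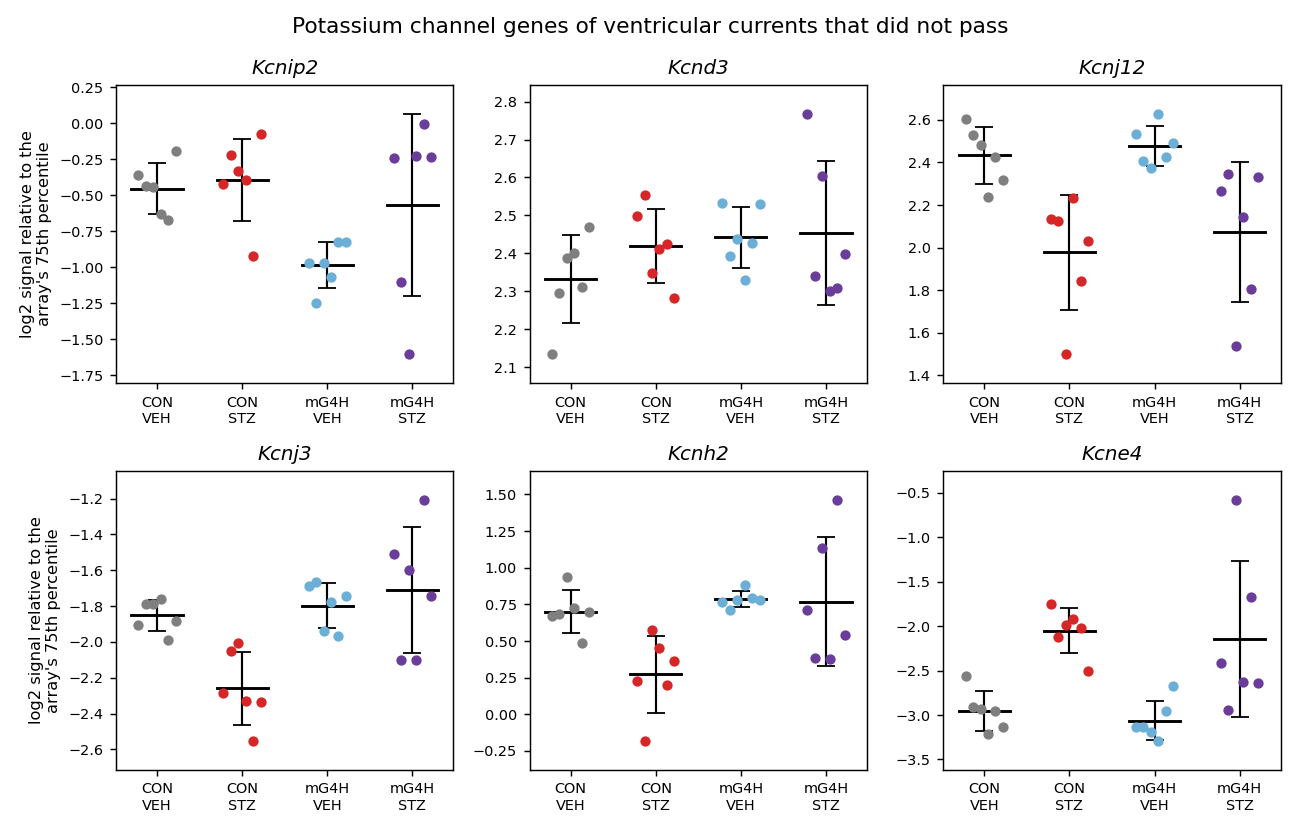
Log2 signal relative to the 75th percentile of each array (vertical axes) for 6 genes that did not pass the threshold in any comparison. Points are single mice in replicate order, the line is the group mean and the bar 1 SD (n = 6). Kcnd3 overlaps in all groups, Kcnj12, Kcnj3 and Kcne4 of CON STZ do not overlap CON VEH, and Kcnip2 of mG4H VEH lies wholly below CON VEH.

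In mG4H hearts no potassium channel gene passed the threshold after STZ, 0 of 72 beside 0.266% of all genes. That background was 75 genes, and it ran from 17 without mG4H STZ 3 to 627 without mG4H STZ 2, with 161 without CON STZ 3 and 0 where the mG4H groups were fitted alone. At an unadjusted p under 0.05 there were 10 lower and 3 higher, beside 7.61% and 6.39% of all genes, and together 13 of 72 beside 14%. The median log2 fold change of the 72 was 0.079 beside 0.061 over all genes. Kcna4 came nearest: it ran from 1.69 through 1.85 to 1.99 in mG4H VEH and from 1.45 through 1.53 to 1.71 in mG4H STZ, a difference of -0.30 ± 0.070 with a limma adjusted p = 0.0657. Kcnn2 ran from 1.02 through 1.19 to 1.34 and from -0.50 through 0.66 to 0.78, without overlap, and its difference was -0.73 ± 0.24 (adjusted p = 0.16). Kcnj12 also had no overlap between the groups, at -0.40 ± 0.13 (adjusted p = 0.168), beside 1.22% of all genes that lay wholly below. Kcne4 was at 0.92 ± 0.27 (adjusted p = 0.136), with mG4H STZ 3 at -0.58 and the median of the group at -2.52. Kcnd2 was at -0.29 with an interval from -0.65 to 0.07, as mG4H VEH ran from 2.23 through 2.75 to 3.07 and mG4H STZ from 1.89 through 2.47 to 2.71. Kcnk6 was at 0.01 with an interval from -0.15 to 0.18. Without mG4H STZ 2, Kcna4 and Kcne4 passed, and without CON STZ 3, Kcnn2 passed.

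The mG4H STZ mice differed most among themselves. Over the 47 genes above background on every array, the median SD was 0.45 in mG4H STZ, 0.34 in CON STZ, 0.24 in CON VEH and 0.20 in mG4H VEH, and the SD was largest in mG4H STZ for 31 of the 47 genes. Kcnip2 showed this in both directions: 2 of the 6 mG4H STZ mice, replicates 2 and 3, were at -1.10 and -1.60 and the other 4 at -0.24 or higher. Kcnip3 reached 2.89 in mG4H STZ 5, where the other 5 were at 0.31 to 1.05. Kcnv2, a silent subunit named after its values were seen, fell to -0.62 in mG4H STZ 3 with the others at 0.95 to 1.53, and Kcnj8 was at 0.15 in that mouse beside a group median of 1.86. The SD of all genes was not compared between groups, so the wider spread is not shown to be particular to Kcn genes.

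**Figure D4:**
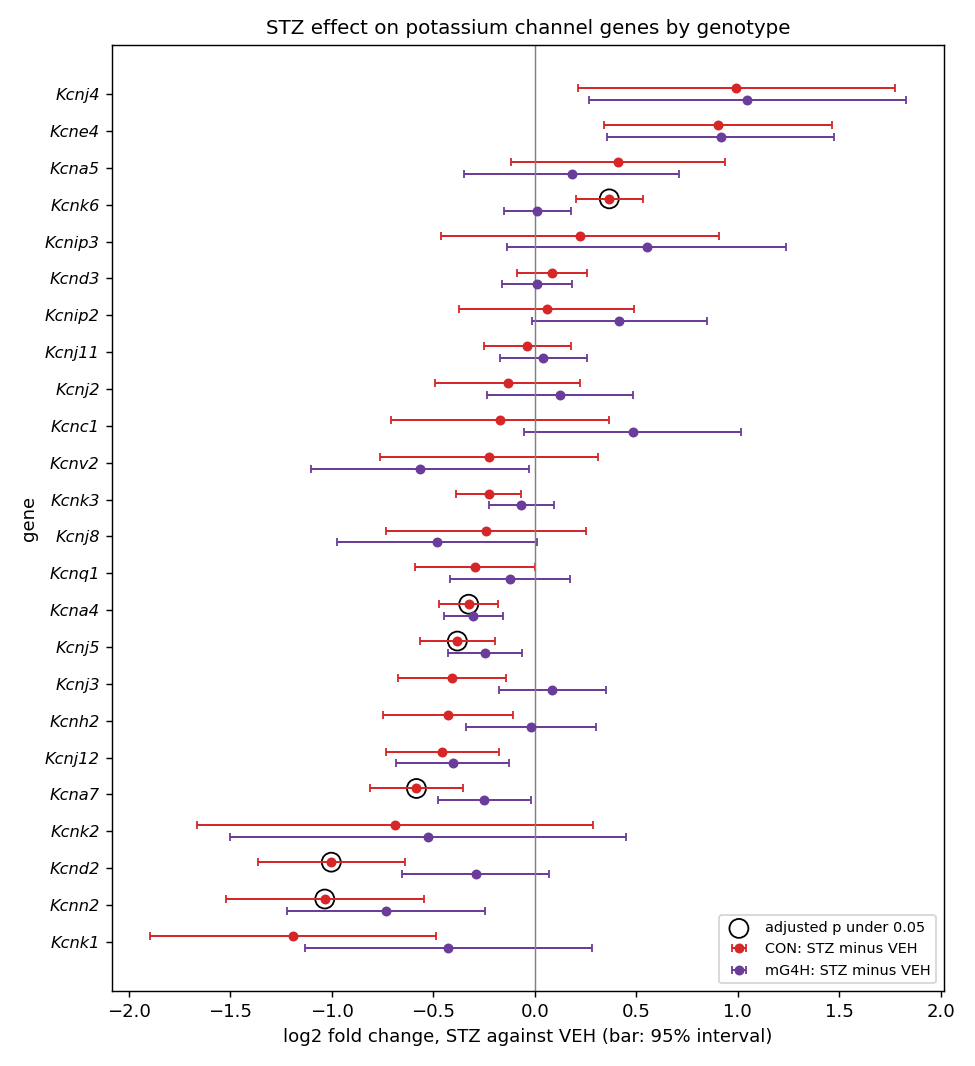
Log2 fold change of STZ against VEH (horizontal axis) for 24 named genes in CON (upper point of each pair) and mG4H hearts (lower point), with 95% intervals from the limma fit. Rings mark an adjusted p under 0.05, which only CON values of 6 genes have. Kcnd2, Kcnk6 and Kcnj3 have the smallest unadjusted p for the difference between genotypes, and none of these passed.

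Whether the STZ effect depended on the genotype was tested as the difference between both effects, and 0 of 72 Kcn genes and 0 of 28237 genes passed in the limma fit (background 0%). At an unadjusted p under 0.05 there were 4 Kcn genes beside 1.77% of all genes. Kcnk6 at -0.35 ± 0.11, Kcnd2 at 0.71 ± 0.25 and Kcnj3 at 0.49 ± 0.18 had the smallest p in that order, and the limma adjusted p = 1 in each. So the calls in CON and their absence in mG4H are not shown to be a difference between the genotypes. For Kcna4 the difference was 0.02 with an interval from -0.18 to 0.23, and for Kcnj12 it was 0.05 with an interval from -0.34 to 0.44.

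The transgene under VEH was compared next, and no Kcn gene passed, 0 of 72 beside 0.0815% of all genes (5 Kcn genes at an unadjusted p under 0.05, beside 2.87%). Kcnip2 of every mG4H VEH mouse, from -1.24 through -0.97 to -0.82, lay below every CON VEH mouse, beside 0.62% of all genes. The difference was -0.53 ± 0.21 (adjusted p = 1), and -0.67, -0.46 and -0.59 on the 3 slides. Kcna4 was higher in mG4H by 0.22 ± 0.070 (adjusted p = 0.659), and Kcnc1, a fast delayed rectifier gene, was lower by 0.65 ± 0.26 (adjusted p = 1). Kcnd2 was at -0.39 ± 0.17 in the same comparison (adjusted p = 1), a value that enters its difference between both STZ effects.

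Under STZ, mG4H and CON were also not separated at any Kcn gene, 0 of 72 beside 0.0106% of all genes. Of the 8 Kcn genes at an unadjusted p under 0.05, beside 3.55% of all genes, 7 were higher in mG4H, beside 2.07%. Kcnj3 had the smallest p: mG4H STZ ran from -2.10 through -1.67 to -1.21, and the difference was 0.55 ± 0.13 (limma adjusted p = 0.289), with 0.86, 0.36 and 0.43 on the 3 slides. Kcnk6 of every mG4H STZ mouse, from 0.49 through 0.57 to 0.81, lay below every CON STZ mouse, beside 0.0531% of all genes, at -0.33 ± 0.080 (adjusted p = 0.299). Kcnh2 was at 0.50 ± 0.15 (adjusted p = 0.608), Kcna4 at 0.25 ± 0.070 (adjusted p = 0.497) and Kcnj5 at 0.24 ± 0.088 (adjusted p = 1). For Kcnh2, mG4H STZ 3 and 5 were at 1.13 and 1.46, and the other mG4H STZ mice at 0.38 to 0.71. Its CON STZ levels ran from -0.18 to 0.58. The high atrial sums given above, in mG4H VEH 5 and 6 and mG4H STZ 4, fell on mice whose Kcnj3 levels were -1.97, -1.75 and -2.10, within or below the range of their groups' other mice, while mG4H VEH 6 had the highest Kcnj5 of all arrays at 3.97.

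A further 46 genes had log2 fold changes from -0.96 to 0.75 in CON and from -1.34 to 0.72 in mG4H, and their smallest adjusted p were 0.133 and 0.247. Of the 19 genes with another kept probe, the difference in CON had the same sign on both probes in 11 and not in 8, among them Kcna7.

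Outside the Kcn family, 32 of 35 listed repolarisation genes were measured, covering sodium and calcium currents, channel partners, scaffolds, regulators and gap junctions. In CON hearts 1 fell and 0 rose after STZ, 1 of 32 beside 3.96% of all genes, and the median log2 fold change was 0.007. The gene that fell was Gja1, which encodes connexin 43, the main ventricular gap junction protein, at -0.50 ± 0.10 (limma adjusted p = 0.0053). In mG4H hearts 0 of 32 passed beside 0.266% of all genes, and Gja1 was at -0.26 ± 0.10 (adjusted p = 0.224). Beside these, 0 of 6 cardiomyocyte markers passed in CON, all 6 being below 0 with a median of -0.08. Nppa, the natriuretic peptide that ventricles express under strain, rose by 2.36 ± 0.43 in CON (adjusted p = 0.00293) and by 2.00 ± 0.43 in mG4H (adjusted p = 0.0494). Ckm, the muscle creatine kinase, was the 1 of 4 measured skeletal muscle markers that passed, and it fell by 0.47 ± 0.10 in CON (adjusted p = 0.00952). It is also expressed in heart muscle, and in mG4H it was at -0.23 ± 0.10 (adjusted p = 0.308). None of the fibroblast, endothelial or pericyte and smooth muscle markers passed in either genotype, and the summed fibroblast signal was 264.1 to 327.7 in CON VEH and 288.2 to 416.4 in CON STZ. In CON 5 of 5 fibroblast markers were above 0 (median 0.33). So were 7 of 8 pericyte and smooth muscle markers (median 0.17) and 1 of 5 endothelial markers. In mG4H these counts were 2 of 5, 6 of 8 and 2 of 5. The part of these marker sets in the Kcn results was not tested.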

How the data were processed

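Per the labels, the RNA of 24 left ventricles was labelled with Cy3 for Agilent arrays of 1 colour. Per the file headers, the deposited intensity is the processed signal of Feature Extraction 10.5.1.1, background-subtracted within the array and not scaled between arrays, and probes are placed on mm9. The submitters' processing notes also list limma. The deposited mean and background intensities served for the normexp alternative (offset 50).

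The log2 of an array's 75th percentile over 59305 gene spots was subtracted from its log2 signals. Outlier spots were left out and spots of a probe averaged, which left 0.083% of values missing. Probes above background on at least 6 arrays were kept, and the brightest stood for its gene. One limma 3.58.1 model in R 4.3.3 held all 24 arrays, a mean per group and no covariate. Tests were two-sided, with Benjamini-Hochberg adjustment over 28237 genes and a threshold of 0.05. The number of arrays limits the precision. Mice are named by group and replicate.

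The genes named were those past the threshold in any comparison, the 3 smallest p where none passed, genes of the main ventricular currents, and genes whose probes disagree with a call. Kcnk1, Kcnj4, Kcnip3 and Kcnv2 were added after their values were seen, and Kcne4 by both routes. One gene that the rule names is not reported here. The members and lists were chosen with earlier results of these data known. Of the 72 genes, 67 had an accession found in the RefSeq table, each with the same symbol. Exons were not assigned to probes, as gene models of mm9 were not used here. Python 3.11.15, numpy 2.4.6, pandas 2.3.3 and matplotlib 3.10.9 made the promoter windows, sums and plots.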

Additional observations from a re-analysis of the deposited data

Results flagged for a closer look

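Among 24 named genes in 4 groups, 96 groups of 6 mice were examined for a mouse far from the other 5, and 11 held one. Of the 24, 4 were named after their values were seen, and the other 20 genes held 7 in 80 groups. Chance alone gives about 1 in 20. In mG4H STZ 3, Kcnd2 was lowest at 1.89 with the others at 2.41 to 2.71, and Kcnv2 was lowest at -0.62 with the others at 0.95 to 1.53. Kcnk2 of that mouse was lowest at -7.00, a level near background, with the others at -4.32 to -3.53. In mG4H STZ 5, Kcnn2 was lowest at -0.50 (others 0.36 to 0.78) and Kcnip3 highest at 2.89 (others 0.31 to 1.05). CON STZ 3 had the lowest Kcnn2 of its group, -1.23 against 0.07 to 0.58, and the highest Kcnip3, 2.05 against 0.42 to 0.68. CON VEH 3 had the highest Kcna5, 1.86 against 1.17 to 1.42, and the lowest Kcnj4, -0.75 against 0.73 to 1.19. In mG4H VEH 3, Kcnj2 was lowest at -3.31 (others -2.63 to -2.42). Kcnj5 of mG4H VEH 6 was highest at 3.97, against 3.66 to 3.76. CON VEH 3 and mG4H VEH 3 were the 2 arrays of slide 4. No Kcn gene passed the test of a difference between the genotypes' STZ effects.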

How the results depend on the processing

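The count of Kcn genes past the threshold in CON, 6, stayed within 1.5 times with quantile normalization, normexp, filters of 1 or 12 arrays, averaged probes, only the groups compared, a slide block and no slide 4. It was 0 with median scaling (75 genes over the array in place of 1117), 1 with body weight as a covariate, 2 at a threshold of 0.01 and 12 without CON STZ 3, mG4H STZ 3 and mG4H STZ 5, a choice made after seeing the data (2366 over the array). Leaving out single arrays gave 6 to 10 in CON (636 to 1640 over the array), and 0 to 2 in mG4H in place of 0 (17 to 627 in place of 75). The other 3 comparisons gave 0 each time, as they did with all arrays. All 6 genes called in CON kept their call in all 24 of these fits, with adjusted p from 0.00075 to 0.0448, and kept their direction under all other settings. Under median scaling the adjusted p of the 6 ran from 0.137 (Kcnd2) to 1 (Kcnk6), with fold changes of -1.04 and 0.33, and SE of 0.28 and 0.20 in place of 0.17 and 0.080. STZ mice were lighter than VEH mice, so weight and treatment overlap in the fit with weight, where Kcnk6 was at 0.35, Kcnj5 at -0.32, Kcnn2 at -0.80, Kcnd2 at -0.68 and Kcna7 at -0.39, and 168 genes passed over the array. The replicate block gave 8 Kcn genes in CON in place of 6, and 937 genes in place of 1117 over the array. Among same-numbered mice 16 of 36 pairs correlated above 0.1 (range -0.60 to 0.66, median 0.0036), and 8 of 24 arrays correlated best with their own number. No chance level was worked out for these counts, so they do not show whether the numbers pair mice. The listed repolarisation genes past the threshold in CON, 1 as reported, were 0 with median scaling, 0 with body weight, 2 with a slide block (Gja1, Ank2), 2 without the 3 arrays and 1 to 2 over single arrays left out, with Abcc8 added without CON STZ 3. Signal over background limits 25 of the 72 genes, which fell below it on at least 1 array.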
